A study of Oryza sativa with 4 samples.

Results

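The TIFY10 and TIFY11 genes of rice were followed over 4 Affymetrix arrays of young panicles taken before stage 5. They are the 8 genes TIFY10A (LOC4333065), TIFY10B (LOC4343899), TIFY10C (LOC4347164), TIFY11A (LOC4331832), TIFY11B (LOC4331834), TIFY11C (LOC4331833), TIFY11D (LOC4348533) and TIFY11E (LOC4348531), out of 17905 genes with a probe set of their own. They were chosen by name, and every probe set that the platform's annotation ties to 1 of them alone was taken, which gave 9 of 57194 probe sets. TIFY11B has 2 probe sets and each other gene has 1. All 9 were tested, since no filter on low values was used.

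The plants were ago2-1, which carries an OsAGO2 antisense, and the wild type ZH11 (WT). Argonautes such as OsAGO2 bind small RNAs. Both grew in the field without a treatment, and each genotype gave 1 array in 2013 and 1 in 2014, so n = 2 arrays per genotype. How the antisense is driven, whether ago2-1 is 1 line and how many plants an array holds are not given in the sources used here. A p-value therefore reflects only spread between arrays, not a known spread between plants. The 2 arrays of a genotype are from different years, so a test that leaves out the year counts the change between the years as spread. A test that pairs the arrays of a year reflects, in part, how far the within-year differences lie apart. Either spread may be partly technical. With that pairing limma gave more weight to a prior variance from all probe sets (4.48 prior against 1 residual degree of freedom). The label on RNA extraction describes a human tissue and cannot apply to these panicles. Levels are log2 intensities after quantile scaling of the 4 arrays, and differences are log2 differences of those levels.

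TIFY proteins of these subfamilies are jasmonate ZIM-domain (JAZ) proteins, the repressors of jasmonate signalling. Without the hormone they bind transcription factors of the MYC2 type and, through the adaptor NINJA and TOPLESS-related co-repressors, keep target genes off. The active hormone, jasmonoyl-isoleucine, joins JAZ proteins to the F-box receptor COI1, after which the repressors are degraded. In rice and Arabidopsis many JAZ genes are themselves switched on by jasmonate and by wounding, so their transcripts are commonly read as a sign of the pathway's activity. Jasmonate is needed for normal spikelet and stamen development in rice. TIFY11A, TIFY11C and TIFY11B follow each other on chromosome 3 with 0 other genes between them in the RefSeq table, and TIFY11E and TIFY11D lie on chromosome 10 with 3 genes between them. TIFY10A is also on chromosome 3, TIFY10B on chromosome 7 and TIFY10C on chromosome 9.

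The arrays and the labels were checked first. The 9 measured young panicle markers, floral MADS-box genes with DL and OSH1, had summed intensities after scaling of 26127 and 25955 on the ago2-1 arrays of 2013 and 2014, against 23887 and 23964 on the WT arrays. AGO2 (LOC4336991), the targeted gene, had log2 levels of 9.92 and 10.68 on the ago2-1 arrays, against 9.84 and 10.24 on the WT arrays, so the libraries labelled ago2-1 did not have a lower AGO2 signal. The 95% interval of its difference was −0.62 to 1.15 (limma adjusted p = 1). The stretches of the gene covered by its probe set and by the antisense were not stated in the labels, so ago2-1 stands throughout for the libraries labelled that way. The deposited medians were 45.2 to 45.3 on the arrays of 2014 and 28.8 to 29.1 on those of 2013, which is why they were scaled before years were compared.

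On the arrays of 2013 every TIFY10 and TIFY11 probe set was lower in ago2-1 than in WT, by 0.59 to 5.25 on the log2 scale, whereas in 2014 the differences ran from −1.01 to 0.39. The WT array of 2013 held the highest level of all 4 arrays for 9 of 9 probe sets, a position that 24.6% of all probe sets shared. It lay at least 2-fold above each of the other 3 arrays for 7 of the 9, against 1.1% of all probe sets. In bulk tissue, fewer cells that express a gene and less RNA per cell cannot be told apart.

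**Figure D1:**
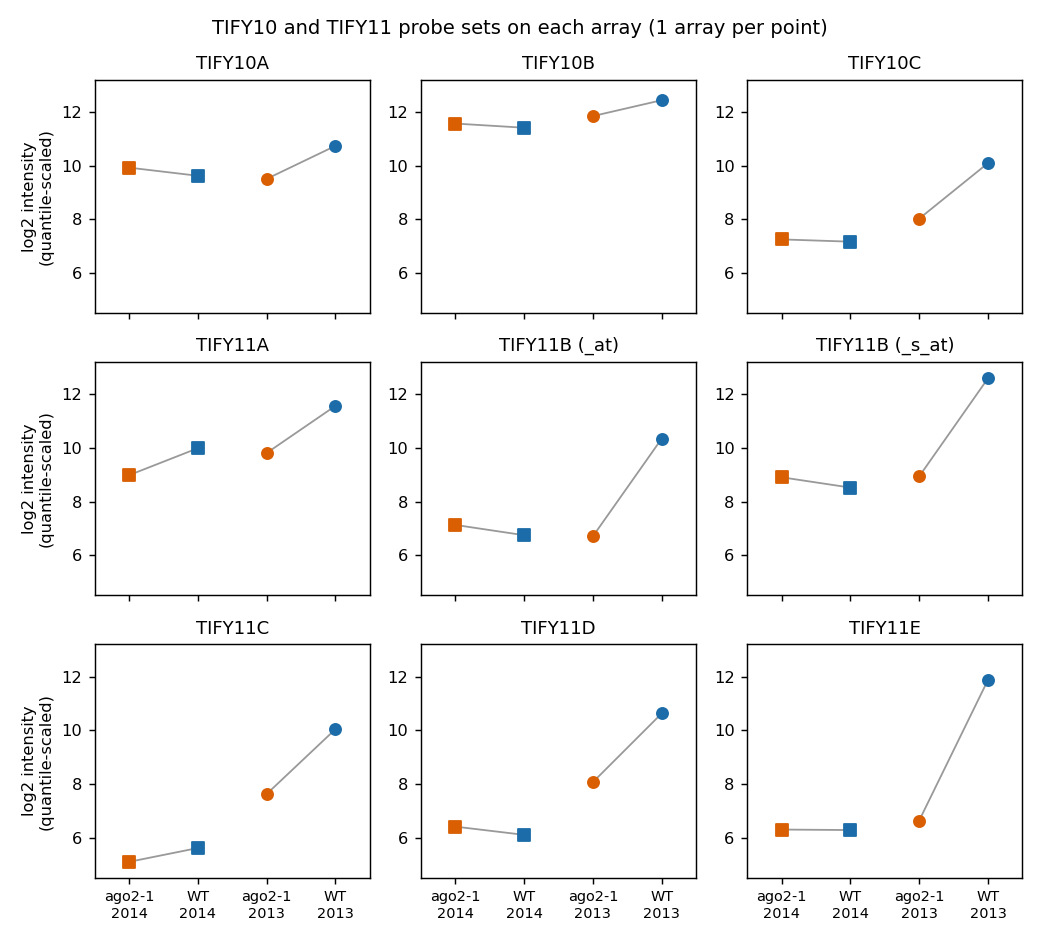
Log2 intensity after quantile scaling (vertical axis) of the 9 TIFY10 and TIFY11 probe sets on each of the 4 arrays, with ago2-1 in orange and WT in blue, squares for 2014 and circles for 2013. Each point is 1 array, grey lines join the arrays of a year, and in every panel the WT array of 2013 is the highest point.

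Of the 8 genes TIFY11E, on chromosome 10, had the widest gap between the genotypes in 2013. It had a log2 level of 6.63 in ago2-1, against 11.88 in WT, on the arrays of 2013. In 2014 it had 6.30 in ago2-1, against 6.28 in WT. The 2 ago2-1 arrays and the WT array of 2014 thus lay within 0.36 of each other, and the WT array of 2013 stood 5.25 above the highest of them, a 37.9-fold difference between the genotypes in that year. TIFY11D had 8.07 in ago2-1, against 10.63 in WT, in 2013. In 2014 it had 6.41 in ago2-1, against 6.10 in WT. Here the ago2-1 array of 2013 was also above both arrays of 2014, so the order of the levels was WT 2013, ago2-1 2013, ago2-1 2014 and WT 2014.

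The 3 adjacent genes of chromosome 3 were not alike. TIFY11B, a regulator reported to affect grain size in rice, was read by a pair of probe sets that moved together. Its _s_at probe set had 8.94 in ago2-1, against 12.60 in WT, in 2013, and 8.90 in ago2-1, against 8.52 in WT, in 2014. The _at probe set had 6.71 in ago2-1, against 10.35 in WT, in 2013, and 7.13 in ago2-1, against 6.74 in WT, in 2014. The differences of both probe sets were −3.66 and −3.64 in 2013, a 12.6-fold and a 12.5-fold gap, and 0.39 and 0.38 in 2014. An _s_at probe set can bind related transcripts, yet the other probe set gave almost the same differences. TIFY10A was read by an _s_at probe set alone, so it has no such comparison.

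TIFY11C, the middle gene of the 3, had 7.62 in ago2-1, against 10.04 in WT, in 2013. In 2014 it had 5.09 in ago2-1, against 5.61 in WT. It was lower in ago2-1 in both years (−2.42 and −0.52), and its ago2-1 array of 2013 was still above the WT array of 2014, so the genotypes overlap. TIFY11A, linked in rice to salt and potassium responses, had 9.81 in ago2-1, against 11.57 in WT, in 2013. In 2014 it had 8.98 in ago2-1, against 9.99 in WT. TIFY11A was the 1 gene of the 8 with both ago2-1 arrays below both WT arrays, which held for 9.87% of all probe sets. It was 3.38-fold lower in ago2-1 in 2013 and 2.01-fold lower in 2014.

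The TIFY10 genes moved less, with TIFY10C as the exception. TIFY10C, linked in rice to jasmonate-induced resistance to bacterial blight, had 8.02 in ago2-1, against 10.09 in WT, in 2013. In 2014 it had 7.25 in ago2-1, against 7.16 in WT. This profile had 1 high array and 3 that lay within 0.86 of each other. Among the TIFY11 genes that spread was 0.36 for TIFY11E and 0.42 for TIFY11B, but 1.01 for TIFY11A, 1.97 for TIFY11D and 2.53 for TIFY11C. TIFY10A had 9.50 in ago2-1, against 10.73 in WT, in 2013, and 9.92 in ago2-1, against 9.62 in WT, in 2014. TIFY10B had 11.84 in ago2-1, against 12.44 in WT, in 2013, and 11.57 in ago2-1, against 11.41 in WT, in 2014. For TIFY10B the WT array of 2013 was only 0.59 above the next array, and the other 3 spread over 0.43. With 1 array per genotype and year, no neighbours in these orders can be shown to differ beyond a spread between replicates.

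Counted by size, 8 of the 9 probe sets, from 7 of the 8 genes, were at least 2-fold lower in ago2-1 in 2013, against 1.57% of all probe sets, and TIFY10B was the gene below that limit, at 1.51-fold. At 4-fold there were 6 of 9, against 0.369% of all probe sets. In 2014 only TIFY11A was at least 2-fold lower, against 0.308% of all probe sets, and on the values as deposited it fell just short of 2-fold. None of the 9 was 2-fold higher in ago2-1 in 2013 (0.717% of all probe sets) or in 2014 (0.386%). The median of the 8 genes was −2.25 in 2013 and 0.12 in 2014, where all probe sets had medians of 0.02 and 0.00. Each of these within-year differences rests on 1 array per genotype and has no replicate check.

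**Figure D2:**
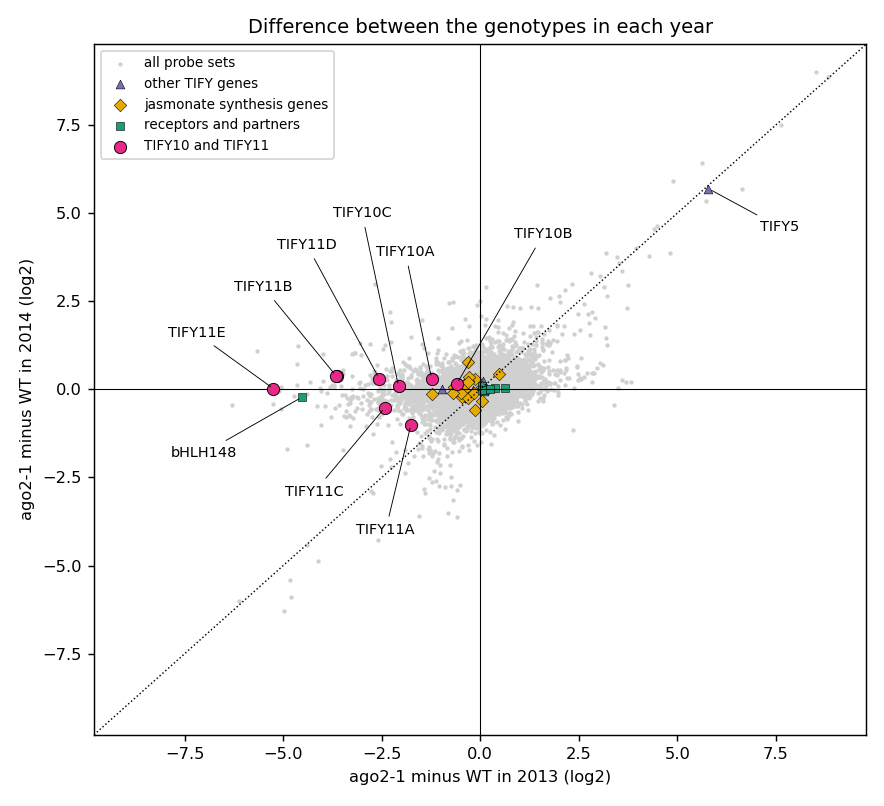
Log2 difference between the genotypes (ago2-1 minus WT) in 2013 (horizontal axis) and in 2014 (vertical axis) for all probe sets (grey), the 9 TIFY10 and TIFY11 probe sets (pink circles), other TIFY genes, jasmonate synthesis genes, and receptors and partners. The dotted line marks equal differences, near which TIFY5 lies at 5.79 and 5.70, while TIFY11E lies at −5.25 and 0.02.

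Over both years together, 0 of the 9 probe sets passed the test between the genotypes (limma on all 4 arrays without a block, Benjamini-Hochberg adjusted over all probe sets, threshold 0.05), which called 0.00175% of all probe sets. At an unadjusted p below 0.05 the count was also 0 of 9 in that fit, beside 684 of all 57194 probe sets. TIFY11E differed by −2.61 ± 3.72 (SD of the within-year differences, n = 2, limma adjusted p = 1), with a 95% interval from −7.60 to 2.37. For TIFY11A the difference was −1.38 ± 0.53, with an interval from −3.02 to 0.26 (limma adjusted p = 1). These intervals reach from large decreases to values above 0, so the test does not show that the genes were equal.

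With year as a block, which compares the genotypes within each season, 0 of the 9 passed as well in limma, where 0.117% of all probe sets did. In that fit an unadjusted p below 0.05 was found for 5095 of all 57194 probe sets and for 2 of the 9. Those were TIFY11A, at −1.38 with an interval from −1.89 to −0.88 (limma adjusted p = 0.18), and TIFY11C, at −1.47 with an interval from −2.53 to −0.41 (limma adjusted p = 0.46). TIFY11E had an interval from −5.45 to 0.22 (limma adjusted p = 0.57). The 2 genes nearest to the threshold were thus those lower in ago2-1 in both years, not those with the widest gap in 2013. Without the WT array of 2013 the difference turned above 0 for 8 of the 9 probe sets, to 0.19 for TIFY11E and 1.14 for TIFY11D, and stayed below 0 for TIFY11A (−0.59). That fit mixes the genotypes with the years.

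Markers of other tissues were read beside these differences. The measured genes of the tapetum and pollen wall list, 4 of 4, lay lower in ago2-1 in both years, with medians of −0.75 in 2013 and −1.28 in 2014. The share of all probe sets lower in both years was not counted. PTC1 differed by only −0.21 in 2013 and −0.23 in 2014. Their summed intensity after scaling was 2475 and 976 on the ago2-1 arrays of 2013 and 2014, against 4459 and 2143 on the WT arrays. The 4 measured green tissue genes differed between the genotypes by 0.08 to 0.24 in 2013 and by −0.28 to −0.11 in 2014. Of the 4 tapetum genes only RAFTIN1, a pollen wall protein gene, passed between the genotypes with year as a block (−2.13 and −1.78 in 2013 and 2014, limma adjusted p = 0.022). No marker was at 0 on this scale, which has no detection call. The part of the anther tissue in the TIFY differences was not tested.

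Between the years, each TIFY10 and TIFY11 probe set was at least 2-fold lower in 2014 than in 2013 in WT (9 of 9, against 4.13% of all probe sets, and 6 of 9 on the values as deposited), while in ago2-1 this held for 2 of 9, those of TIFY11C and TIFY11D (against 2.91%). The changes in WT ran from −5.60 for TIFY11E to −1.03 for TIFY10B, and those in ago2-1 from −2.53 for TIFY11C to 0.42 for TIFY11B and TIFY10A. The medians of the 8 genes were −0.56 in ago2-1 and −3.50 in WT. The median over all probe sets was 0.00 in ago2-1 and 0.03 in WT. The genotype differences and the changes between the years share the WT array of 2013, so they are not separate observations.

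TIFY11C and TIFY11D were lower in 2014 in both genotypes by more than 2-fold. TIFY11C changed by −2.53 in ago2-1 and by −4.43 in WT. TIFY11D changed by −1.66 in ago2-1 and by −4.53 in WT. By contrast the _s_at probe set of TIFY11B changed by −0.03 in ago2-1 and by −4.08 in WT, and TIFY11E by −0.34 in ago2-1 and by −5.60 in WT. The difference between the genotypes in these changes leaves no residual degrees of freedom and was not tested.

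**Figure D3:**
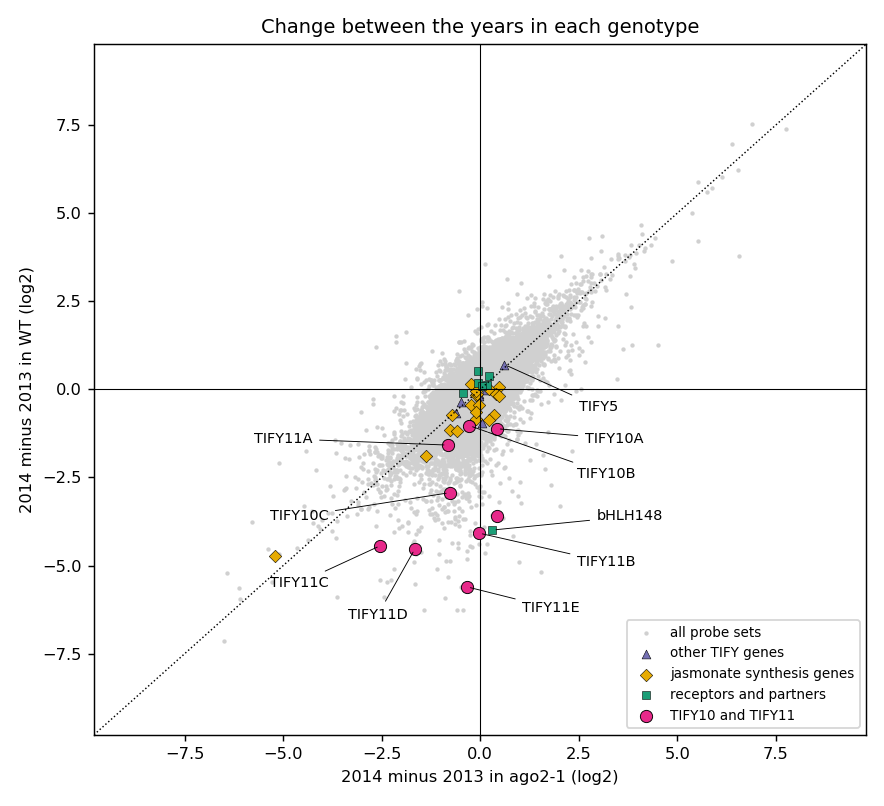
Log2 difference of 2014 minus 2013 in ago2-1 (horizontal axis) and in WT (vertical axis), with the same colours as the plot of genotype differences. The dotted line marks equal changes, and all TIFY10 and TIFY11 points lie below it, TIFY11E the farthest at −0.34 in ago2-1 and −5.60 in WT.

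In the fit over both genotypes (limma with genotype as a term), 4 of the 9 probe sets passed, all lower in 2014, where 11.1% of all probe sets were called lower. TIFY11C fell by 3.48 ± 1.35 (SD of the 2 changes, limma adjusted p = 0.0086), TIFY11D fell by 3.09 ± 2.03 (limma adjusted p = 0.025), TIFY10C fell by 1.85 ± 1.53 (limma adjusted p = 0.045) and TIFY11A fell by 1.20 ± 0.53 (limma adjusted p = 0.017). TIFY11E, with −2.97 ± 3.72, did not pass (limma adjusted p = 0.11), and its interval ran from −5.80 to −0.14. TIFY10C passed neither on the values as deposited (limma adjusted p = 0.058) nor after cyclic loess (limma adjusted p = 0.054). The mean change of TIFY11E was close to that of TIFY11D, but its 2 changes lay farther apart.

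These calls moved with the prior variance and the genotype term, and the changes moved with single arrays. With a robust prior variance only TIFY11A passed (limma adjusted p = 0.018). With a trend in the prior variance 5 passed, TIFY10B among them (limma adjusted p = 0.035). Without a genotype term 1 of the 9, TIFY11C, passed. Over all probe sets these settings called 23.6%, 25.7% and 16.2%, in either direction. Leaving out an array leaves no room for that term and 1 array in a year, so only sizes are given for such fits. Without the WT array of 2013 the change of TIFY11A was −0.32, against −1.20 on all 4 arrays. In the same fits the change ranged from −5.60 to −0.35 for TIFY11E, from −4.38 to −1.82 for TIFY11D, from −4.68 to −2.27 for TIFY11C, from −2.89 to −0.82 for TIFY10C and from −3.90 to −0.22 for the _s_at probe set of TIFY11B. Over the same years all 4 green tissue genes passed higher and all 4 tapetum and pollen wall genes passed lower. Of all 57194 probe sets 6995 passed higher and 6343 lower. Of the 9 young panicle markers 1, MADS58, passed, at −0.73 (limma adjusted p = 0.017). The summed intensity of green tissue genes was 23607 and 26209 on the ago2-1 and WT arrays of 2014, against 7062 and 6111 on those of 2013. For the tapetum list it was 976 and 2143 in 2014, against 2475 and 4459 in 2013. The part of these tissues in the change of the TIFY genes was not tested, and year, season and array batch cannot be told apart.

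Other genes of the jasmonate pathway were taken from lists by name. Of 8 other TIFY genes 7 were measured, and in 2013 their differences between the genotypes ran from −0.98 to 5.79 with a median of 0.06. The upper end is TIFY5 (LOC4342421), a JAZ gene that had 8.66 in ago2-1, against 2.87 in WT, in 2013, and 9.27 in ago2-1, against 3.58 in WT, in 2014. Its difference of 5.74 ± 0.06 (n = 2) passed with year as a block (limma adjusted p = 0.000275) but not without one (limma adjusted p = 0.17). The only probe set of TIFY5 is of the _s_at kind, which can bind related transcripts. The WT levels were dim, with 12.0% of all probe sets at or below them in 2013 and 24.2% in 2014, and no detection call shows them to be above background, so the size of this difference is uncertain. None of the other 6 was 2-fold apart between the genotypes in either year, and 2 of the 7 lay below 0 in 2013. TIFY6B (LOC4347000) came nearest, 1.97-fold lower in ago2-1 in 2013. It had 10.01 on the WT array of 2013, against 9.03 to 9.07 on the other arrays. Its second probe set was also highest there, at 7.71, against 7.18 to 7.46. Between the years TIFY5 rose by 0.66 (limma adjusted p = 0.021) and TIFY9 (LOC4335698) fell by 0.64 (limma adjusted p = 0.022), and no other passed. The deposited intensities of TIFY9 were 19.6 in ago2-1 and 18.6 in WT in 2013. In 2014 they were 20.6 in ago2-1 and 18.8 in WT, so its fall depends on the scaling.

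Of 7 measured receptor and partner genes, 1 was lower in ago2-1 in 2013. This was bHLH148 (LOC4334060), a transcription factor that binds JAZ proteins in rice and takes part in drought responses. It had 5.86 in ago2-1, against 10.37 in WT, in 2013, and 6.16 in ago2-1, against 6.38 in WT, in 2014. Like TIFY11E it was high on the WT array of 2013 alone. The difference was −2.37 ± 3.04 (n = 2, limma adjusted p = 1, and 0.55 in the fit within years). It was −0.37 when the WT array of 2013 was left out. The other 6, the receptor genes COI1A, COI1B and COI2, the adaptor NINJA1 and the co-repressors TPR2 and TPR3, lay between 0.04 and 0.62 in 2013. None of the 7 passed between the genotypes or the years in limma on its probe set with the highest mean. With the block 1 of 7, bHLH148, had an unadjusted p below 0.05, as did 5095 of all 57194 probe sets. A second probe set of NINJA1 did pass between the years, at −0.54 (limma adjusted p = 0.038), where the first had 0.07.

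Jasmonate synthesis genes, matched by names of lipoxygenases, allene oxide synthases, the allene oxide cyclase, oxophytodienoate reductases and the conjugating enzyme JAR1, were measured for 19 of 22. In 2013, 16 of the 19 were below 0, with a median of −0.30 and 1 gene at least 2-fold lower, against 1.57% of all probe sets. That gene, picked out after its values were seen, is the allene oxide synthase AOS1 (LOC4334233), at −1.22 in 2013 and −0.14 in 2014. In 2014, 10 of 19 were below 0 with a median of −0.01. Over all probe sets the medians were 0.02 in 2013 and 0.00 in 2014, and the share below 0 was not counted. Between the genotypes 0 of 19 passed in limma with or without the block. An unadjusted p below 0.05 was found for 3 with the block and 0 without it, beside 5095 and 684 of all 57194 probe sets. Some reductases and lipoxygenases of the list may serve other pathways, so its counts are those of names.

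Between the years 5 of the 19 synthesis genes passed, all lower in 2014, beside 11.1% of all probe sets. They were the lipoxygenase gene LOX1.1 (LOC4334049), which fell by 4.96 ± 0.33 (limma adjusted p = 0.00048), AOS2 (LOC4332121), which fell by 1.64 ± 0.37, OPR5 (LOC4340485), which fell by 0.95 ± 0.27, OPR7 (LOC4345762), the reductase of jasmonate synthesis in rice, which fell by 0.89 ± 0.41, and AOS3 (LOC4328742), which fell by 0.72 ± 0.02. The change of LOX1.1 was −5.19 in ago2-1 and −4.73 in WT, a smaller gap between the genotypes than in TIFY11E. In 2014 the levels of LOX1.1, AOS2, OPR5 and AOS3, like that of TIFY9, lay below the median of all probe sets, so the sizes of their changes are uncertain too. The deposited intensities of AOS3 were 12.7 in ago2-1 and 12.4 in WT in 2013. In 2014 they were 13.1 in ago2-1 and 12.4 in WT, so its fall depends on the scaling. No gene of jasmonate breakdown (CYP94B or CYP94C) was matched by name.

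The members were compared with each other and with all other genes by the root mean square difference of their centred log2 levels over the 4 arrays, a description with no test. The levels were not scaled to a common range, so genes with small ranges lie close whatever the order of their arrays. The nearest pair among the 8 were TIFY10A and TIFY10B (0.28), from chromosomes 3 and 7, followed by TIFY11C and TIFY11D (0.35), from the clusters on chromosomes 3 and 10. TIFY10A and TIFY10B also moved least, over 1.23 and 1.03, and their orders differed. The ago2-1 array of 2013 was the lowest for TIFY10A, and the WT array of 2014 for TIFY10B. Neighbours on a chromosome were not the closest: TIFY11A and TIFY11C lay 1.18 apart, TIFY11C and TIFY11B 0.90, and TIFY11E and TIFY11D 0.96. TIFY10C was nearer to TIFY11A (0.52) and TIFY11B (0.58) than to TIFY10B (0.80) or TIFY10A (0.81). TIFY10B and TIFY11E, with ranges of 1.03 and 5.60, were the farthest apart (2.01).

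For the 4 members with the widest range, the 3 nearest of 22427 probe sets of single genes outside the family were named. TIFY11E was nearest to LOC4335417 on chromosome 4 (0.08), then to a probe set of LOC4349011 on chromosome 10 (0.22), which carries the name BC1L9, and to LOC4325751 on chromosome 1 (0.23). LOC4335417 had 7.33 in ago2-1, against 12.37 in WT, in 2013, and 6.84 in ago2-1, against 6.77 in WT, in 2014. TIFY11B was nearest to another probe set of LOC4349011 (0.12), to LOC4345414 on chromosome 8 (0.12) and to LOC4339469 on chromosome 5 (0.15). So 1 gene outside the family, LOC4349011, was near to both TIFY11E and TIFY11B through different probe sets. On every array but that of WT in 2013, both its probe sets, LOC4345414 and LOC4325751 lay below the median of all probe sets. Their likeness on those arrays therefore rests on dim values.

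TIFY11D was nearest to LOC4326919 on chromosome 1 (0.13), and TIFY11C to LOC4330144 on chromosome 2 (0.24). Both also had LOC4325944 on chromosome 1 and LOC4333712 on chromosome 3 among their nearest 3. LOC4326919 had 8.95 in ago2-1, against 11.64 in WT, in 2013, and 7.27 in ago2-1, against 6.75 in WT, in 2014. These genes share with TIFY11C and TIFY11D the raised ago2-1 array of 2013 beside the higher WT array. With only 4 arrays many probe sets can come close to any profile.

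**Figure D4:**
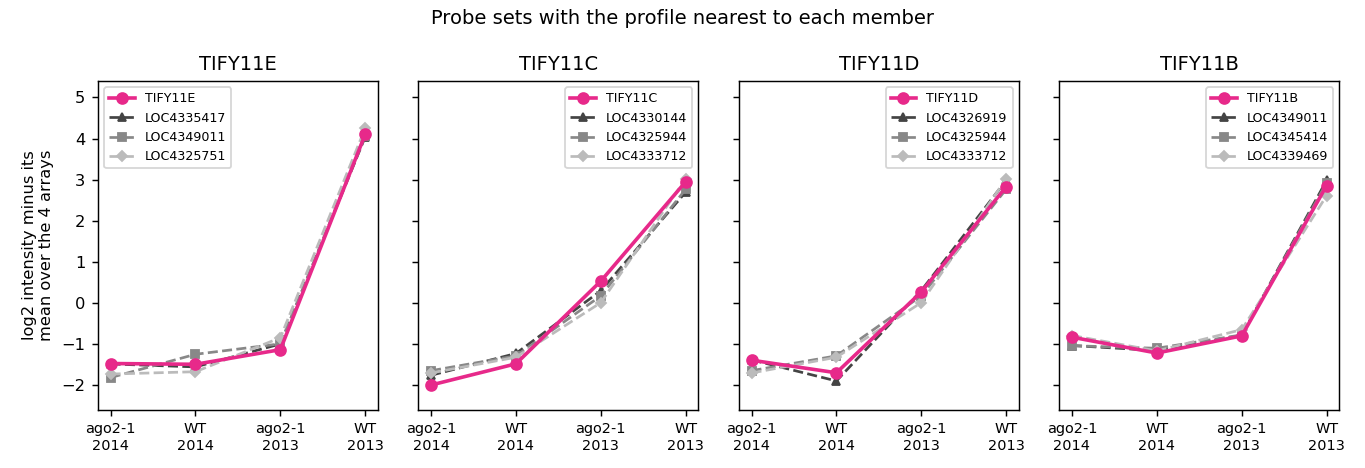
Log2 intensity after quantile scaling minus its mean over the 4 arrays (vertical axis), on each array (horizontal axis), for TIFY11E, TIFY11C, TIFY11D and TIFY11B (pink) and the 3 probe sets nearest to each (grey, dashed). Each point is 1 array, and the 4 pink profiles peak on the WT array of 2013.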

How the data were processed

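Young panicle RNA was measured on 4 Affymetrix rice arrays, 2 of ago2-1 and 2 of WT, with 1 of each per year. The authors deposited 1 linear intensity for each probe set and array. Per the submitters' processing notes the tool was RMA, its version unstated, and other steps are not given in the sources used here. No counts exist, so the number of arrays limits the precision. Compared rank by rank on log2 of the deposited intensity, arrays from one season differed by at most 0.12, but 2014 exceeded 2013 by a median of 0.65, so the years were on different scales.

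Log2 was taken with no pseudocount, the 4 arrays were quantile-scaled, and all 57194 probe sets were tested with limma 3.58.1 (lmFit, eBayes) in R 4.3.3, with Benjamini-Hochberg adjustment over all of them. The genotypes were compared without a block and, as an alternative, with year as a block. The titles give the year, and arrays of 1 year share a growing season, which pairs them. Across probe sets, same-year deviations from each genotype's mean had r = 0.76. The years were compared with genotype as a term. Other alternatives were the deposited scale, median centring, cyclic loess, brighter probe sets only, a prior variance with a trend or a robust one, dropping _x_at and _s_at probe sets, other fold limits and leaving out each array.

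The annotation ties 22436 probe sets to 1 gene, 95 to several, and lists none for 34663. Gene numbers were looked up in RefSeq's gene table (ASM3414082v1), where all 22436 had an entry; only names and gene order were taken from it. Named genes are the 8 members, genes of the jasmonate lists past a test, 2-fold apart in both years or 4-fold in 1 year, the nearest profiles and AGO2. AOS1, TIFY6B, JAR1 and the receptor, adaptor and co-repressor genes other than bHLH148 did not meet this rule and were named after their values were seen. The rule did not cover the marker lists, from which RAFTIN1 and MADS58 were also named after their values were seen. Left out were MADS18, reached only through its older name MADS2, a cell death gene named DAD1 and a sucrose synthase named RSs3. Members and lists were chosen with earlier results of these data known.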

Additional observations from a re-analysis of the deposited data

Results flagged for a closer look

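For 7 of the 9 probe sets ago2-1 was higher than WT on the arrays of 2014 and lower on those of 2013, a contrast that rests on 1 array per genotype and year and was not tested. The genotype difference of 2014 minus that of 2013 was 5.26 for TIFY11E, 4.04 and 4.02 for the _s_at and _at probe sets of TIFY11B, 2.87 for TIFY11D, 2.16 for TIFY10C, 1.54 for TIFY10A and 0.75 for TIFY10B. The differences of 2014 in these were small, from 0.02 to 0.39, so the opposed sign rests on small values. Over all probe sets the differences of 2014 had an SD of 0.29. How many of all probe sets had such opposed signs was not counted, so the 7 of 9 have no share beside them. The difference of 2014 minus 2013 for bHLH148 had opposed signs, 0.31 in ago2-1 and −3.99 in WT, which lie 4.30 apart and were not tested against each other.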

How the results depend on the processing

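Between the genotypes 0 TIFY10 and TIFY11 probe sets passed under each alternative run (of 9 tested, or of 7 without _x_at and _s_at probe sets), the replicate block (year) on either scale and the fits without each array included. Over all probe sets the block moved the count to 67, against 1 without it, and the deposited scale gave 29, or 61 with the block. The block changed the call of no named gene other than TIFY5 and RAFTIN1. With an array left out and no block, genotype and year are mixed. The genotype difference then ranged from −1.02 to 0.094 for TIFY10A, −0.73 to 0.30 for TIFY10B, −2.47 to 0.48 for TIFY10C, −3.44 to 0.17 and −3.67 to 0.40 for the probe sets of TIFY11B, −3.70 to 0.75 for TIFY11C, −3.40 to 1.14 for TIFY11D, −5.41 to 0.19 for TIFY11E and −0.12 to 0.64 for AGO2. At 2-fold in 2014, 1 of 9 differed between the genotypes, against 0 as deposited and 0 at 4-fold. Between the years 4 passed, against 5 with a trend in the prior variance, 2 among brighter probe sets, 1 with a robust prior and 1 without a genotype term. Over all probe sets 13338 passed (6995 higher and 6343 lower), against 46058 as deposited (44735 higher and 1323 lower). The count was 14695 with a trend, 4971 among brighter probe sets, where fewer were tested, and 9237 without a genotype term. As deposited, which adds the 0.65 shift, TIFY10A changed by 0.24. Leaving out an array together with the genotype term, which mixes the genotypes into the change, moved the yearly change over −0.97 to 0.27 for TIFY10A, −3.41 to 0.23 for TIFY11B (_at), −2.23 to 3.53 for TIFY5 (−2.19 without the ago2-1 array of 2014) and −4.10 to 0.41 for bHLH148. In ago2-1, 2 were 2-fold apart between the years, against 4 as deposited (2 higher and 2 lower), 4 at 1.5-fold and 1 at 4-fold. In WT 9 were, against 6 as deposited and 6 at 4-fold. The cause of these shifts was not tested. Depth and detection are unknown, so dim values have no floor.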
